A study of Saccharomyces cerevisiae with 12 samples.

Results

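The genes described here are the 9 that encode the translation elongation factors of budding yeast, *TEF1*, *TEF2*, *EFB1*, *TEF4*, *EFT1*, *EFT2*, *YEF3*, *HYP2* and *ANB1*, out of 6002 nuclear coding genes. They were listed by name, with no rule on measured values, although earlier results of these data were known when the list was drawn up. All 9 were found in a RefSeq gene table of assembly R64. Chromatin immunoprecipitation and sequencing mapped Myc-tagged Scc2, a subunit of the complex that loads cohesin onto chromosomes, in W303 cells in which Med14, the subunit that holds the Mediator complex together, carried an auxin-inducible degron. The 3 cultures with auxin received the auxin IAA at 1 mM, and the 3 cultures without auxin are those whose title and treatment label name none, although the protocol text, auxin included, is repeated for every sample. All samples share 1 MATa genotype. It carries MED14-AID*-6FLAG::HYG and, for the immunoprecipitation, SCC2-13MYC::NAT. It also has ADH1-OsTIR1, from pMK200, at ura3-1, so that the plant F-box protein that marks the degron for destruction is present in every culture. Effects of auxin and of Med14 loss therefore cannot be told apart, and a list from cells without the tag or the degron was not used here. Per the labels, cells were held in alpha-factor, then released into nocodazole and kept there for 2 hours. Fission yeast with a Myc tag on Mis4 was added for calibration before fixation.

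The authors deposited 1 list of narrow peaks for each immunoprecipitate, with 964, 1324 and 1569 peaks in the lists with auxin (replicates 1, 2 and 3) and 2115, 2111 and 1502 in the lists without auxin. The depth behind the lists is unknown, and a list says where a peak was called, not how much Scc2 was bound. Scc2 may be present where the lists hold no peak. Each replicate was grown as its own culture, per the labels. The main measure below is the percentage of a gene's coding span, from start to stop codon with introns included, that lay under peaks in a list. The 500 bp on either side of the span were measured in the same way. Positions are on sacCer3 and are counted from 0 at the first base of the start codon unless a chromosome is named.

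During elongation, eEF1A brings each aminoacyl-tRNA to the ribosome as a complex with GTP, and the eEF1B complex exchanges the spent GDP for GTP. The translocase eEF2 then moves the ribosome along the messenger RNA. Fungi also need eEF3, an ATPase that acts on the ribosome's exit site, and eIF5A, a small protein with the unusual amino acid hypusine, helps the ribosome through difficult stretches. Most of these genes are among the most strongly transcribed in growing yeast. Transcription was not measured in the data used here.

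Peaks spanned nearly the whole of most elongation factor genes in cultures without auxin and were shorter, split or missing in cultures with auxin. In the lists with auxin, 5, 6 and 8 of the 9 genes had a peak that overlapped the coding span by at least 1 bp, against 8, 9 and 8 genes in the lists without auxin. The corresponding shares of all coding genes were 7.93%, 12.4% and 15.2% with auxin and 24.9%, 25.0% and 17.0% without. A peak was present in at least 2 of 3 lists at 6 elongation factor genes with auxin and at 8 without, while 11.3% of all coding genes met this rule with auxin and 22.4% without. A peak was present in all 3 lists at 5 of the 9 with auxin (7.23% of coding genes) and at 8 of the 9 without (15% of coding genes). None of the 9 had a peak in all 3 lists without auxin and in none with it, which 5.56% of coding genes did.

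Coverage of the coding span was lower in every list with auxin than in every list without auxin at 8 of the 9 genes, the exception being *ANB1*. The same held for 599 (9.98%) of all coding genes. Only a gene with a peak in all 3 lists without auxin could meet this rule. That was so for 902 coding genes, and for the same 8 of the 9. None of the 9 had higher coverage in every list with auxin, which 1.62% of coding genes did. At *TEF1*, *TEF2*, *EFB1*, *EFT2* and *HYP2* at least 1 list without auxin reached 100%, so higher coverage was not possible there. The median difference (auxin minus no auxin) over the 9 genes was -44.8 percentage points, and it ranged from -83.5 to -8.47. Over all coding genes the median difference was 0, since most had no peak, and over the 1988 genes with any coverage it was -12.3. Mean coverage over all coding genes was 3.86%, 5.63% and 7.42% in the lists with auxin and 13.4%, 13.2% and 9.64% without. The 9 genes thus had more coverage to lose than most, and differences in points do not compare relative losses. For each of the 8 genes p was 0.1 by an exact two-sided permutation test, the smallest value that 3 lists against 3 can reach. Benjamini-Hochberg adjustment over the 1988 genes gave 0.286 for each, so no gene could pass a threshold of 0.05. By this permutation test 0 genes passed it before or after adjustment.

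**Figure D1:**
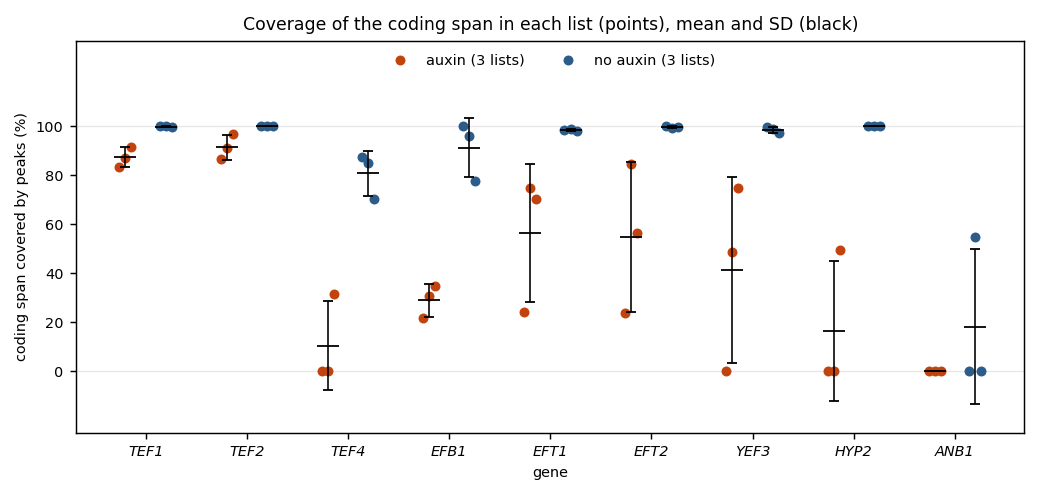
Percentage of the coding span covered by Scc2 peaks (y axis) at each elongation factor gene (x axis), with 1 point per list, lists with auxin in orange to the left and lists without auxin in blue, and the mean and SD in black. At every gene but ANB1 the 3 orange points lie below the 3 blue ones, with mean differences from -8.47 percentage points at TEF2 to -83.5 at HYP2.

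The length of the lists moved with these values. Mean coverage over the 9 genes was 26.6%, 46.4% and 56.2% in the lists with auxin of 964, 1324 and 1569 peaks. In the lists without auxin, of 2115, 2111 and 1502 peaks, it was 87.3%, 92.6% and 82.6%. The third list with auxin and the third without it are of nearly the same length, and the mean coverage in them was 56.2% with auxin and 82.6% without. Over all coding genes the mean in these lists was 7.42% with auxin and 9.64% without. Their peaks covered 918 kb of the nuclear genome with auxin and 1105 kb without, so equal length was not equal extent. With every list cut to its 964 most significant peaks, the same count of 8 genes had lower coverage in every list with auxin, and the differences at *EFT1* and *YEF3* were larger, at -70.9 and -98.6 percentage points against -42.1 and -57.4 with all peaks. The part of sequencing depth or enrichment in the differences was not tested.

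*TEF1* and *TEF2* encode the same protein, eEF1A, from near-identical coding sequences, so that the aligner can exchange their reads and the peaks of one are uncertain as an observation apart from the other. *TEF1* lies on chromosome XVI (700594 to 701970, plus strand). Peaks covered 83.5%, 87.0% and 91.6% of its coding span with auxin, against 100%, 100% and 99.9% without. The means were 87.4 ± 4.04% with auxin and 99.95 ± 0.0839% without (SD, n = 3 each; exact permutation p = 0.1). *TEF2* lies on chromosome II (477671 to 479047, plus strand). Its coverage was 86.8%, 91.0% and 96.8% with auxin and 100% in each list without. Both genes had a single peak over the coding span in all 6 lists, and their mean coverage with auxin was the highest among the 9 genes.

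What differed at *TEF1* and *TEF2* was the extent of the peak at both ends of the gene. At *TEF1* the first covered base lay 133, 138 and 108 bp into the gene with auxin, against 0, 0 and 2 bp without. At *TEF2* it lay 159, 110 and 44 bp into the gene with auxin and at the start codon in each list without. When the coding span was cut into 3 equal parts, the middle part of both genes was covered in full in all 6 lists. Past the stop codon, peaks covered none of the 500 bp downstream of *TEF1* in any list with auxin, against 70.4%, 71.4% and 59.0% without auxin, where the peaks ended within the convergent neighbour *GRS2*. Downstream of *TEF2* the coverage was 0%, 0% and 22.2% with auxin and 56.2%, 58.2% and 53.0% without. The peaks without auxin ran 281, 291 and 265 bp past the *TEF2* stop codon, and those at *TEF1* ran 352, 357 and 295 bp past it.

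The bases covered in all 3 lists with auxin ran from 138 to 1282 in *TEF1* and from 159 to 1353 in *TEF2*, stretches of 1145 and 1195 bp. When both genes were aligned at the start codon, 1124 bp were common, or 98.2% of the *TEF1* stretch and 94.1% of that of *TEF2*. Separate peaks upstream were called with auxin in 2 of 3 lists at *TEF2*, with summits 363 and 284 bp before the start codon, and in 1 of 3 lists at *TEF1*, with its summit 414 bp before it. No list without auxin held a separate upstream peak at either gene.

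Within their own lists the *TEF1* and *TEF2* peaks held different places by significance, the −log10 p that the authors' peak caller gave. With auxin the *TEF1* peak ranked 504 of 964, 508 of 1324 and 500 of 1569, and without auxin 9 of 2115, 11 of 2111 and 38 of 1502. The *TEF2* peak ranked 541 of 964, 498 of 1324 and 519 of 1569 with auxin, against 11 of 2115, 5 of 2111 and 22 of 1502 without. The lists differ in length and in which other peaks they hold, so these ranks describe each list and show no change by themselves.

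*EFB1* and *TEF4* encode subunits of the eEF1B exchange complex, the catalytic alpha subunit and the gamma subunit. *EFB1* lies on chromosome I (142174 to 143160, plus strand). Its coverage was 21.7%, 30.6% and 34.7% with auxin, against 100%, 96.3% and 77.7% without. The means were 29.0 ± 6.63% with auxin and 91.3 ± 11.9% without (SD, n = 3 each; exact permutation p = 0.1). Each list with auxin held 1 short peak of 214, 302 or 342 bp in the gene, where the lists without auxin held peaks of 1046, 1013 and 835 bp. The 3 short peaks lay at the same place, with summits 676, 700 and 672 bp from the start codon, against 720, 739 and 767 bp without auxin. The opening part of *EFB1*, of the same 3 equal parts, was uncovered in all 3 lists with auxin and covered to 100%, 88.8% and 33.1% without.

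The 500 bp upstream of *EFB1* did not share the lower coverage of its coding span. They were covered to 51.8%, 65.0% and 63.0% with auxin and to 0.400%, 43.8% and 54.4% without, and the groups overlapped (exact permutation p = 0.2). The peak there had its summit 408, 387 and 397 bp before the start codon with auxin, and 423 and 385 bp before it in the 2 lists without auxin that held one. It lay in the spacer between *EFB1* and the divergent gene *SSA1*, an Hsp70 chaperone gene whose coding span begins 742 bp away. Peaks covered 50.8%, 68.8% and 81.4% of *SSA1* with auxin and 79.0%, 82.4% and 99.3% without.

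*TEF4* lies on chromosome XI (282891 to 284455, plus strand). It had no peak in the first and second lists with auxin and coverage of 31.4% in the third, against 87.3%, 85.0% and 70.4% without auxin. The means were 10.5 ± 18.2% with auxin and 80.9 ± 9.17% without (SD, n = 3 each; exact permutation p = 0.1). Its single peak with auxin was 492 bp wide and ranked 1315 of 1569. The largest peaks without auxin covered the middle and closing parts of the gene in full, with summits 1115, 1116 and 1066 bp from the start codon.

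Both exchange factor genes hold a snoRNA gene, a guide for ribosomal RNA modification, and the peaks met these in different ways. *SNR38* lies 294 to 388 bp into *TEF4*, and no peak of any list touched it. In the first and second lists without auxin a short peak before it ended 279 and 261 bp into the gene and a long one after it began 466 and 469 bp into the gene. The third list without auxin held only the long one, from 463 bp. *SNR18* lies 193 to 294 bp into *EFB1*. It was uncovered in all 3 lists with auxin and covered to 100%, 100% and 73.5% without. A peak over the snoRNA gene counts as one over its host, and by extent alone the *EFB1* peaks without auxin cannot be assigned to either. Their summits lay 720, 739 and 767 bp from the start codon, past *SNR18*.

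*EFT1* and *EFT2* encode the same protein, eEF2, the translocase that carries the diphthamide modified by diphtheria toxin. They are a near-identical pair, with the same uncertainty about reads. *EFT1* lies on chromosome XV (575098 to 577626, plus strand). Its coverage was 24.2%, 75.0% and 70.3% with auxin, against 98.7%, 99.1% and 98.1% without, with means of 56.5 ± 28.1% and 98.6 ± 0.483% (SD, n = 3 each; exact permutation p = 0.1). *EFT2* lies on chromosome IV (1243230 to 1245758, plus strand). Its coverage was 23.6%, 84.9% and 56.4% with auxin and 100%, 99.6% and 99.7% without, with means of 55.0 ± 30.6% and 99.8 ± 0.220% (SD, n = 3 each; exact permutation p = 0.1). The spread among lists with auxin was wide at both genes, and the first list with auxin had the lowest coverage at each. Without that list the difference (auxin minus no auxin) was -26.0 percentage points at *EFT1* and -29.1 at *EFT2*, against -42.1 and -44.8 with all lists.

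A single peak spanned nearly the whole of each eEF2 gene in every list without auxin. At *EFT1* it was 2529, 2580 and 2525 bp wide. With auxin *EFT1* held 2, 3 and 2 peaks and *EFT2* held 1, 1 and 2. The first covered base of *EFT1* lay 534, 228 and 578 bp into the gene with auxin and 32, 24 and 48 bp without. At *EFT2* it lay 278, 365 and 217 bp into the gene with auxin and 0, 11 and 7 bp without. Neither gene had any downstream coverage with auxin, and without auxin peaks ran 32, 75 and 44 bp past the *EFT1* stop codon and 324, 75 and 40 bp past that of *EFT2*. In the first list without auxin the *EFT2* peak thus came close to the start of *MUS81*, 325 bp downstream, without reaching it.

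Within each list with auxin, the covered bases of the pair overlapped in part. When the genes were aligned at the start codon, 266, 1760 and 1159 bp were common, or 43.5%, 92.8% and 65.2% of the covered bases of *EFT1* and 44.5%, 82.0% and 81.2% of those of *EFT2*. The bases covered in all 3 lists with auxin were 578 to 701 and 2116 to 2460 in *EFT1* and 365 to 468 in *EFT2*. These came to 469 and 104 bp, and 0 bp were common to these stretches. For the bases covered in all 3 lists without auxin, 2481 bp were common, or 100% of the shared bases of *EFT1* and 98.5% of those of *EFT2*.

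*YEF3*, the gene of eEF3 and the longest of the 9 with a coding span of 3135 bp, lies on chromosome XII (636780 to 639914, plus strand). Its coverage was 0%, 48.8% and 74.8% with auxin, against 99.6%, 98.9% and 97.2% without. The means were 41.2 ± 38.0% with auxin and 98.6 ± 1.24% without (SD, n = 3 each; exact permutation p = 0.1). Without the first list with auxin the difference (auxin minus no auxin) was -36.8 percentage points, against -57.4 with all lists. That list held no peak there, the second held 2 and the third 3, whereas each list without auxin held 1 peak, of 3147, 3137 and 3054 bp. Among the peaks of these lists, whose median widths were 418, 424 and 434 bp, they ranked 53, 50 and 63 by width. The 3 parts, in order along the gene, averaged 26.9%, 37.9% and 58.9% coverage with auxin and 95.7%, 100% and 100% without. No base of *YEF3* was covered in all 3 lists with auxin, and 3048 bp were in all 3 without.

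*HYP2* and *ANB1* encode the 2 forms of eIF5A, made mainly in the presence of oxygen from *HYP2* and at low oxygen from *ANB1*. *HYP2* lies on chromosome V (85676 to 86149, plus strand). Its coverage was 0%, 0% and 49.6% with auxin and 100% in each list without, with a mean of 16.5 ± 28.6% with auxin (SD, n = 3; exact permutation p = 0.1). The peaks without auxin were 1801, 1854 and 1809 bp wide and covered *HYP2* together with part of *UTR5* upstream, the gene *MTC7* and a tRNA gene, YNCE0005W, whose start lies 928 bp from the *HYP2* start codon. With auxin, peaks stood on both sides of the gene. Upstream the summits lay 342, 357 and 367 bp before the start codon, over *UTR5*. Downstream they lay at 911 and 889 bp, within *MTC7* and before the tRNA gene, and at 934 bp, within the tRNA gene.

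The tRNA gene next to *HYP2* was covered in full in all 6 lists. The summit of the peak without auxin lay within *HYP2* in 2 of 3 lists, at 391 and 379 bp. In the third it lay at 912 bp, within *MTC7* and near the tRNA gene. The width of the peaks without auxin means that *HYP2* cannot be told apart from its neighbours as their source. Without *HYP2*, 7 of the 8 remaining genes had lower coverage in every list with auxin.

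*ANB1* lies on chromosome X (524908 to 525381, minus strand). It had no peak in any list with auxin, and a single peak of 260 bp in the second list without auxin covered 54.9% of it. That peak ranked 2069 of 2111 in its list (exact permutation p = 1 for the coverage). *ANB1* was thus the 1 gene of the 9 without a peak in at least 2 lists of either condition. A tRNA gene downstream of it, YNCJ0023C, 814 bp away, was covered in full in all 6 lists.

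Lower coverage with auxin was found in the opening part of the coding span at 8 of the 9 genes and in the downstream flank at 7. The start itself was not always covered without auxin. In the third list without auxin the first covered base lay 463 bp into *TEF4* and 220 bp into *EFB1*. Coverage of the opening part was lower in every list with auxin at all but *ANB1*, against 5.1% of all coding genes. For the middle part this held at 5 of 9 genes (7.01% of coding genes) and for the closing part at 6 of 9 (9.03%). In the 500 bp downstream, coverage was lower in every list with auxin at all but *HYP2* and *ANB1*, against 8.25% of coding genes, and at none was it higher (1.78%). The size of this differed. Without auxin the flank was covered to 70.4%, 71.4% and 59.0% at *TEF1*. It was covered to only 10.6%, 16.4% and 12.8% at *TEF4* and to 4.6%, 7.6% and 1.2% at *YEF3*. Upstream, *HYP2* alone had lower coverage in every list with auxin (2.87% of coding genes) and none of the 9 had higher coverage in every such list (4.38%). At *TEF4*, *EFT1*, *YEF3* and *ANB1* the upstream flank had no coverage in any of the 6 lists.

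**Figure D2:**
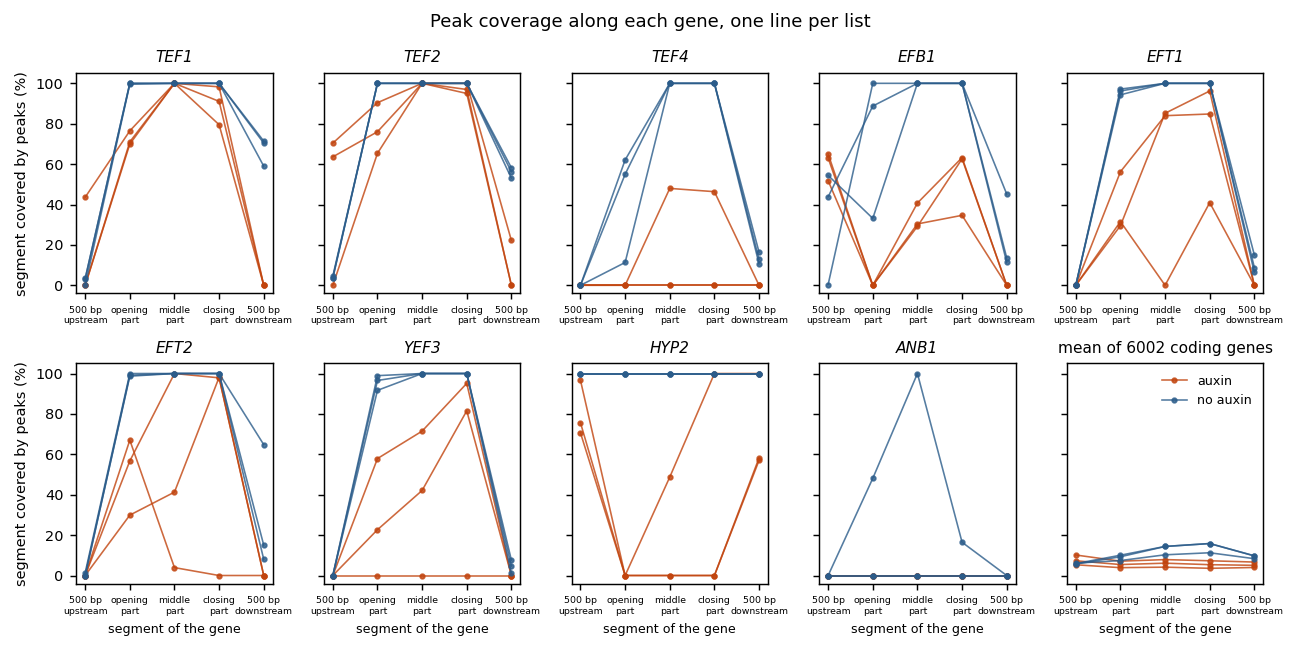
Percentage of each segment under peaks (y axis) in the 500 bp upstream, the 3 equal parts of the coding span and the 500 bp downstream (x axis), with 1 line per list, auxin in orange and no auxin in blue. The last panel gives the mean over 6002 coding genes. The orange lines fall below the blue ones in the opening part of every gene but ANB1, while TEF1 and TEF2 reach 100% in the middle part in all 6 lists.

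Only 5 of the 9 genes, *TEF1*, *TEF2*, *EFB1*, *EFT1* and *EFT2*, had a covered coding base in all 6 lists, as did 332 coding genes in all. Among these the first covered base lay farther from the start codon in every list with auxin at 5 of 5 elongation factor genes, and at 11.1% of the 332. At *TEF1*, *TEF2*, *EFB1* and *EFT2* a list without auxin had its first covered base at the start codon. A nearer first base in every list with auxin was thus not possible there. The last covered base lay farther from the stop codon in every list with auxin at 4 of the 5, *TEF2* being the exception, and at 29.5% of the 332. At all 5 the peaks in every list without auxin reached the stop codon, so a nearer last base was not possible. Coverage itself was lower in every list with auxin at 5 of 5 and at 34.9% of the 332, and higher at 0 of 5 and at 7.23%. At each of the 5 but *EFT1* a list without auxin reached 100%, so higher coverage was not possible there. The choice of genes covered in all 6 lists was made after the values were seen, and *TEF1* and *TEF2*, like *EFT1* and *EFT2*, are not independent of each other.

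**Figure D3:**
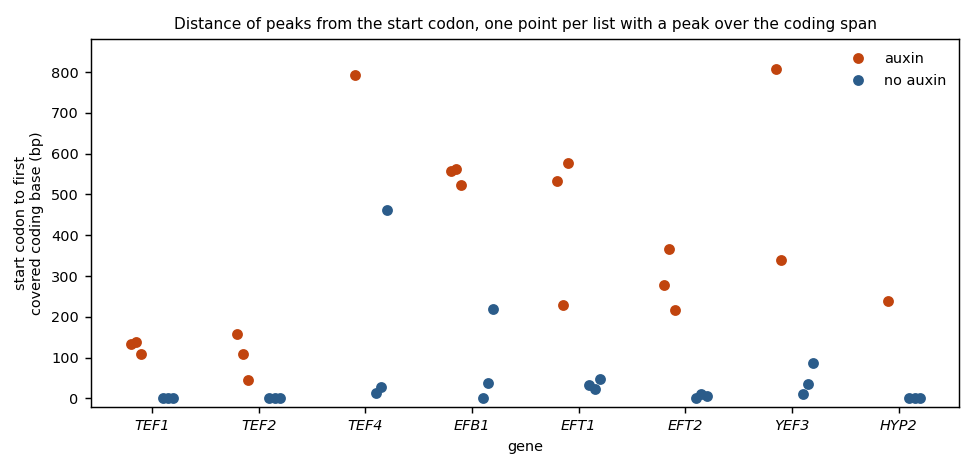
Distance in bp from the start codon to the first coding base under a peak (y axis) at 8 genes (x axis), with 1 point per list that held a peak over the coding span, auxin in orange to the left and no auxin in blue. TEF4, YEF3 and HYP2 have points for 1, 2 and 1 lists with auxin. With auxin the points lie between 44 and 808 bp, and at each gene all of them lie above those without auxin.

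Coverage of at least 90% of the coding span in all 3 lists of a condition, a level chosen after the values were seen, was found at none of the 9 genes with auxin and at 6 of 9 without (*TEF1*, *TEF2*, *EFT1*, *EFT2*, *YEF3* and *HYP2*). Among all coding genes the shares were 1.1% with auxin and 3.35% without. The order of mean coverage with auxin was *TEF2*, *TEF1*, *EFT1*, *EFT2*, *YEF3*, *EFB1*, *HYP2*, *TEF4* and *ANB1*. Between neighbours in this order the values of the 3 lists overlapped, except between *TEF1* and *EFT1*.

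For each gene with peaks in at least 2 lists without auxin, the coding gene of at least 500 bp with the most similar coverage over the 6 lists was found among 5102 genes, the 9 elongation factor genes being left out of the search. Likeness was the mean absolute difference in coverage. By this measure *TEF1* and *TEF2* differed from each other by 2.11 percentage points and *EFT1* and *EFT2* by 4.61. For both *TEF1* and *TEF2* it was *ILV5*, a branched-chain amino acid biosynthesis gene, at 2.83 and 1.77 percentage points. *ILV5* was covered to 84.5%, 98.5% and 96.0% with auxin and to 100% in each list without. For *YEF3* it was *PMA1*, the plasma membrane proton pump gene, at 1.04 percentage points, with 0%, 47.4% and 74.2% with auxin and 100% in each list without. The others were *STM1*, a ribosome-associated protein gene, for *EFB1* (4.80), *CDC48*, an AAA ATPase gene, for *TEF4* (3.09), the citrate synthase gene *CIT1* for *EFT1* (5.23), and the ribosomal protein genes *RPL3* for *EFT2* (7.48) and *RPS3* for *HYP2* (3.10).

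Other genes of the translation pathway were counted in the same way. Of all coding genes, 7.93%, 12.4% and 15.2% had a peak in the lists with auxin, and 24.9%, 25.0% and 17.0% in those without. Of 26 initiation factor genes, 0, 2 and 4 had a peak over the coding span in the lists with auxin, against 16, 16 and 7 without. In 6 of the 26 the coverage was lower in every list with auxin (9.98% of all coding genes) and in none was it higher (1.62%). Only the 7 with a peak in all 3 lists without auxin could be counted as lower. The median difference was -21.8 percentage points. *TIF1* and *TIF2*, a near-identical pair for the helicase eIF4A, and *PAB1*, for the poly(A)-binding protein, were the listed genes with a peak in all 3 lists lacking auxin and none with it. The same held for 5.56% of all coding genes, and *TIF1* and *TIF2* are not independent of each other. *TIF2* was uncovered in all 3 lists with auxin and covered to 92.3%, 89.8% and 67.3% without (exact permutation p = 0.1). *PAB1* was uncovered with auxin and covered to 72.4%, 76.7% and 19.8% without.

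Among 16 genes for paralogs, modifiers and partners of the elongation factors, 2, 3 and 3 had a peak in the lists with auxin, against 6, 4 and 2 without. Coverage was lower in every list with auxin at 1 of the 16, *STM1*, against 9.98% of all coding genes. Only 2 of the 16 had a peak in all 3 lists without auxin and could be counted as lower. *STM1* was covered to 24.3%, 30.4% and 33.3% with auxin and to 94.6%, 91.2% and 92.0% without. *EFM5*, a methyltransferase gene for eEF1A, had a peak in all 6 lists, with coverage of 65.3%, 89.5% and 100% with auxin and 100%, 85.9% and 100% without. Its systematic name, YGR001C, places it next to the centromere of chromosome VII. Of the 3 termination factor genes none had a peak with auxin, and 1, 1 and 0 had one in the lists without auxin.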

How the data were processed

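Peak lists of 6 Myc immunoprecipitates were analysed, while the 6 samples of total chromatin came without one. Per the submitters' processing notes, Bowtie2 2.4.2 and MACS2 2.1.1.20160309 were used on sacCer3. The sources used here do not give their roles, the threshold or the control. The authors deposited, for each replicate, peak positions and summits in bp, a fold enrichment ratio, −log10 p and −log10 q values and a score. Only positions and, for ranks and filters within a list, −log10 p and −log10 q were used. Averaged tracks were not used here, so calibration enters no value.

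Groups came from sample titles and strands from systematic gene names. Coverage of the coding span was computed for 6002 nuclear genes in Python 3.11.15 with numpy 2.4.6 and compared by an exact two-sided permutation test over 20 assignments with Benjamini-Hochberg adjustment. The functions were tested on simulated data. Genes named are the 9 members, their neighbours, the most similar gene to each outside the members, and pathway genes with peaks in all 3 lists with auxin, or in all 3 without and none with it. Members and lists were chosen with earlier results of these data known. Sequences were not used here. Alternatives were shorter lists, −log10 q minima, other overlaps and windows, each list left out, and replicate blocks. Intervals are not given, since depth is unknown.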

Additional observations from a re-analysis of the deposited data

How the results depend on the processing

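Depth and enrichment are unknown and limit how many weak peaks a list holds. The 8 genes with lower coverage in every list with auxin stayed 8 with equal list lengths, with a −log10 q of at least 5 or 10, and with any list left out (8 to 8), and were 7 with 500 bp added on either side. The count with higher coverage was 0 throughout (0 to 0 with a list left out). With all lists, full coverage in a list without auxin left no room for it at *TEF1*, *TEF2*, *EFB1*, *EFT2* and *HYP2*. Restricting to genes covered in all 6 lists, chosen after seeing the data, left 5, since only 5 could be counted. Genes with a peak in at least 2 lists with auxin numbered 6, and 3 with a −log10 q of at least 10, which removes weaker peaks. They numbered 5 to 6 with a list left out, and 8 to 8 without auxin. For *ANB1* the difference of -18.3 percentage points became 0 with equal list lengths, with either −log10 q minimum, and without the second list lacking auxin, which held its only peak, and was -27.4 to 0 over lists left out. No difference of the other 8 genes changed direction. Leaving out the first list with auxin moved the difference of *YEF3* to -36.8, of *EFT1* to -26.0 and of *EFT2* to -29.1 percentage points. Those of *EFT1* and *YEF3* were -70.9 and -98.6 with equal list lengths and -98.6 for both with a −log10 q of at least 10, against -42.1 and -57.4 with all peaks. With 500 bp added on either side the differences were -30.0 for *EFB1*, -42.9 for *HYP2* and -45.6 for *TEF4*, against -62.3, -83.5 and -70.4 over the coding span. No other alternative moved a difference of these 8 genes by over 1.5 times. No clear pairing of the lists by replicate number was seen, though so few lists cannot settle it. The deviations of same-numbered lists over 1988 genes correlated at -0.000689, 0.00703 and 0.104. The first and second lists with auxin correlated best with another number, and the third with its own. With the replicate block the differences are the same (-8.47 percentage points for *TEF2*), and the exact sign-flip permutation test over 3 pairs gave p = 0.25, its smallest value.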

Other observations

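Some neighbours within 1000 bp of the elongation factor genes had values of their own. *CYC1*, the cytochrome c gene divergent from *ANB1* at 953 bp, was covered to 30.6%, 26.7% and 33.0% with auxin and to 100% in each list without. *BAG7*, downstream of *EFT1*, was covered to 8.29%, 19.5% and 34.3% with auxin and to 3.90%, 6.50% and 7.15% without, and the groups did not overlap. Of the 332 coding genes covered in all 6 lists, 7.23% were likewise higher in every list with auxin. *UTR5*, divergent from *HYP2*, was covered to 78.2%, 100% and 100% with auxin and to 84.0%, 79.4% and 91.6% without, and the groups overlapped. These neighbours were picked after their values were seen.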
